A study of Mus musculus with 6 samples.

Results

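A set of 10 genes for transcription factors that antigen receptor signals induce in T cells were followed in whole B16-F10 tumors: *Nr4a1*, *Nr4a2*, *Nr4a3*, *Egr1*, *Egr2*, *Egr3*, *Nfatc1*, *Irf4*, *Batf* and *Tox*. They were chosen by symbol from the 21358 entries of the deposited expression table, where all 10 were found, and all 10 were among the 14172 genes that entered the test. The tumors came from C57/BL6 females, young adults that carried subcutaneous B16-F10, a mouse melanoma line that expresses the antigen gp100. Both groups had been lymphodepleted by total body irradiation and had received adoptive cell transfer (ACT) of peptide-activated splenocytes from pmel-1 mice, whose CD8 T cells carry a transgenic T cell receptor for gp100. The ACT + IL-2 group (3 mice) was then given IL-2 on consecutive days of each cycle. The ACT + NKTR-214 group (3 mice) was given NKTR-214, an IL-2 prodrug that carries releasable polyethylene glycol chains, once in each cycle. Dose and route also differed, with NKTR-214 given intravenously and IL-2 intraperitoneally. By these schedules the time from the last dose to the harvest differed between the groups and cannot be told apart from the drug. All 6 tumors were taken at day 12, and each gave 1 library. The hosts kept immune and stromal cells of their own, so the RNA held tumor, stromal, host immune and transferred T cell transcripts together. Fewer cells of a type and less RNA per cell cannot be told apart in such bulk samples.

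A T cell that meets its antigen raises intracellular calcium, which activates the phosphatase calcineurin and brings NFAT proteins into the nucleus. NFAT and the AP-1 proteins induce early response genes, among them the EGR zinc finger factors and the NR4A orphan nuclear receptors, while IRF4 and BATF bind DNA together and shape effector programs. With persistent antigen, NFAT signals without enough AP-1 are known to support T cell exhaustion, a state in which NR4A factors and TOX take part. None of the 10 genes is restricted to T cells, and myeloid, stromal and tumor cells can induce several of them.

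Of the 10 genes, 7 were higher in ACT + NKTR-214 tumors (*Egr1*, *Egr2*, *Egr3*, *Nfatc1*, *Irf4*, *Batf* and *Tox*) and 1, *Nr4a3*, was lower. *Nr4a1* and *Nr4a2* did not pass the test. Values are FPKM (fragments per kilobase of exon and per unit of library depth), and the test was limma on log2(FPKM + 1), fitted over the whole table, with calls at a Benjamini-Hochberg adjusted p under 0.05. On this scale the change of a low gene is understated. Over all genes tested 20.7% were higher and 8.28% were lower by this rule. The share of lower genes depended on the scaling and on single tumors: it was 24.7% after 75th percentile scaling, 31.9% after quantile normalization, 14.1% without ACT + IL-2 replicate 2, 4.81% without ACT + NKTR-214 replicate 2, and 4.48% with ACT + IL-2 replicate 3 excluded. There was no overlap between the groups for 5 of the higher genes and for the lower one. Without overlap, 27.1% of all genes tested were higher and 15.3% were lower. The median log2 fold change of the 10 genes was 1.28, beside 0.05 for all genes tested. Ranked by log2 fold change among the 14172 genes, *Nfatc1* stood at 267, *Egr2* at 275, *Egr1* at 373, *Irf4* at 378 and *Egr3* at 386, and *Nr4a3* stood at 14053. With 3 tumors in each group the smallest p of an exact permutation test is 0.1, whereas limma uses a model with a variance shared across genes. Without that sharing none of the 10 genes passed, and *Egr2* was then the nearest to the threshold (limma adjusted p = 0.0597 without moderation, 101 genes higher and 27 lower over the whole table). At an unadjusted p under 0.05 that fit had 5 of the 10 genes higher and 1 lower, beside 21.2% and 11.4% of all genes tested.

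**Figure D1:**
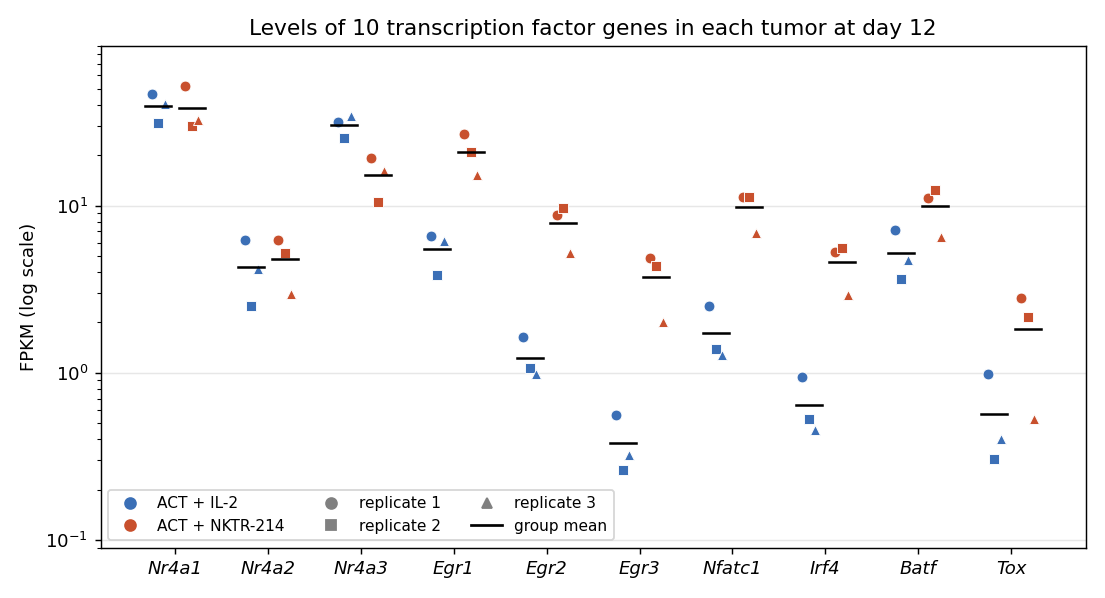
Level of each of the 10 genes in each tumor at day 12, as FPKM on a log axis. Each point is 1 tumor, the marker shape gives its replicate number within the group, and the line is the mean of 3 tumors. The 2 groups are apart for *Nr4a3*, *Egr1*, *Egr2*, *Egr3*, *Nfatc1* and *Irf4*, and they overlap for *Nr4a1*, *Nr4a2*, *Batf* and *Tox*.

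The steps between low FPKM values corresponded to 20860000 to 23800000 mapped fragments for ACT + IL-2 and 23690000 to 24620000 for ACT + NKTR-214. The sum of FPKM over all entries was lowest in ACT + IL-2 replicate 2 (176419.8), and it lay between 217581.4 and 246513.7 in the other 5 libraries. All 7 melanocyte marker genes were detected in each tumor labelled as B16-F10, with a summed level of 2664 to 6933 FPKM.

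The NR4A genes are printed first with their upstream sequence, because 1 of these paralogs fell while the other two did not pass the test. *Nr4a1* (Nur77) lies at chr15:101254269-101274795, *Nr4a2* (Nurr1) at chr2:57106830-57124003 and *Nr4a3* (NOR-1) at chr4:48045153-48086447 (GENCODE vM21 on GRCm38). The sequences are those of RefSeq on GRCm38.p6, written 5′ to 3′ on the strand of the gene. Capitals mark the letters TGACG on either strand, the core of the cAMP response element that CREB and ATF proteins bind. For *Nr4a1* and *Nr4a2* the 250 bases before an annotated start are given, and for *Nr4a3* the 98 bases before its first GENCODE exon.
Nr4a1 promoter, chr15:101266596-101266845, plus strand: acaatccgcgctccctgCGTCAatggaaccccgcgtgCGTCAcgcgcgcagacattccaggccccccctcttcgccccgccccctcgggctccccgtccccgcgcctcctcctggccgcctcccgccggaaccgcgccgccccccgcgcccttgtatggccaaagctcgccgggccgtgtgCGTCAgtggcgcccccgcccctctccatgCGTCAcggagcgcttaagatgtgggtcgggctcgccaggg
Nr4a2 promoter, chr2:57124004-57124253, minus strand: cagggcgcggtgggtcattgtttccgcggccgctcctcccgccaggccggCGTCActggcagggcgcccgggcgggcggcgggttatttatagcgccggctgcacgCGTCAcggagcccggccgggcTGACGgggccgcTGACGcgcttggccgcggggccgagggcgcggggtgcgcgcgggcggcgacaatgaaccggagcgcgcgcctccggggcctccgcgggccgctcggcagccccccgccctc
Nr4a3 promoter, chr4:48045055-48045152, plus strand: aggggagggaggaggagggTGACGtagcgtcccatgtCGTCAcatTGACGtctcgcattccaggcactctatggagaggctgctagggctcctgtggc
The full 250-base window of each of these 3 genes held 4 such cores, and 3 of the 4 in *Nr4a3* are in the stretch printed. This motif was chosen after the sequences had been read. At least 1 core was found in 17.77% of the 32851 RefSeq windows of this length, and at least 4 in 0.137% of them. The full site, TGACGTCA, was in none of the 3 windows and in 1.55% of all. The *Nr4a1* and *Nr4a2* windows each held GCGNGGGCG, the letters bound by EGR proteins (4.7% of all windows), and the *Nr4a3* window did not. AAAGGTCA, the letters that NR4A monomers bind, was in none of the 3 (1.34% of all). These matches describe letters only, on both strands.

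*Nr4a1*, an immediate early reporter of receptor signals, had the highest level of the 10 genes in both groups. It measured 46.6, 31.0 and 40.3 FPKM in the IL-2 tumors (replicates 1, 2 and 3) and 52.1, 30.0 and 32.4 FPKM in the NKTR-214 tumors. The highest and the lowest tumor were both ACT + NKTR-214 tumors, and the groups overlapped. The log2 fold change of *Nr4a1* was -0.07 (SE 0.20, limma adjusted p = 0.846). *Nr4a2* measured 6.26, 2.51 and 4.19 FPKM under ACT + IL-2 and 6.25, 5.24 and 2.94 FPKM under ACT + NKTR-214. Replicate 1 was the highest in each group at nearly the same level. For *Nr4a2* the log2 fold change was 0.14 (SE 0.25, limma adjusted p = 0.711). The sign for *Nr4a1* and *Nr4a2* changed between the alternative settings, from -0.31 to 0.08 and from -0.13 to 0.40, and *Nr4a2* was at -0.02 with quantile normalization.

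*Nr4a3*, the paralog that is low in most resting cells and is induced by receptor and cAMP signals, was the only 1 of the 10 genes called lower. It measured 31.4, 25.3 and 34.2 FPKM under ACT + IL-2 and 19.3, 10.5 and 16.0 FPKM under ACT + NKTR-214. Every ACT + IL-2 tumor was above every ACT + NKTR-214 tumor. The mean was 30.3 ± 4.57 FPKM under ACT + IL-2 and 15.3 ± 4.41 FPKM under ACT + NKTR-214 (SD, n = 3 each), a ratio of 0.505. The log2 fold change was -0.97 (SE 0.19, limma adjusted p = 0.00118), with -1.05 after 75th percentile scaling and -1.06 after quantile normalization. It lay between -1.15 and -0.74 under all alternatives.

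The NR4A paralogs were also compared with each other within each tumor, as the difference in log2(FPKM + 1). *Nr4a3* stood 0.56, 0.29 and 0.23 below *Nr4a1* in the ACT + IL-2 tumors and 1.39, 1.43 and 0.97 below it in the ACT + NKTR-214 tumors. These gaps did not overlap between the groups. The change of *Nr4a3* was 0.90 lower than that of *Nr4a1* on the log2 scale (exact two-sided permutation p = 0.1, the smallest that 3 against 3 tumors allow). The change of *Nr4a2* differed from that of *Nr4a1* by 0.21 (exact permutation p = 0.6), and these gaps overlapped. With 1 tumor left out this difference lay between -0.01 and 0.37. With the EGR pairs below, 4 such pairs were compared, so that no adjusted p could pass.

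The EGR genes encode zinc finger factors that bind GC-rich promoters, and *Egr2* and *Egr3* are known for restraining T cell activation and for the anergy program. *Egr2* lies at chr10:67535475-67542188 and *Egr3* at chr14:70077203-70082614. The *Egr2* stretch, from the same RefSeq source, is shown because *Egr2* was among the genes that changed most and its promoter holds 2 kinds of early response letters. It covers the last 120 bases before 1 of several annotated starts, and capitals mark the cores TGACG (either strand) and a CArG box, the letters that serum response factor binds.
Egr2 promoter, chr10:67537749-67537868, plus strand: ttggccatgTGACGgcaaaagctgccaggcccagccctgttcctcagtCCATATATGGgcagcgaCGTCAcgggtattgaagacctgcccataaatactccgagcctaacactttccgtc
The CArG box lies between the 2 cores. Of the *Egr2* windows, 2 hold no GENCODE exon base, and the one printed was taken after both had been read. The other, which lies upstream, holds a CArG box and 0 cores. A CArG box was found in 1.47% of all 250-base windows and in none of the 3 NR4A windows above. It too was searched for after the sequences had been read.

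*Egr1*, an immediate early gene in many cell types, measured 6.59, 3.86 and 6.15 FPKM in the IL-2 tumors and 26.9, 20.9 and 15.3 FPKM in the NKTR-214 tumors. The lowest ACT + NKTR-214 tumor was above the highest ACT + IL-2 tumor. The means were 5.53 ± 1.46 and 21.0 ± 5.80 FPKM (SD, n = 3 each), a ratio of 3.80, with a log2 fold change of 1.75 (SE 0.21, limma adjusted p = 1.11e-05).

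*Egr2* was near 1 FPKM under ACT + IL-2 (1.64, 1.06 and 0.986 FPKM) and measured 8.83, 9.72 and 5.17 FPKM under ACT + NKTR-214. Replicate 3 was the lowest of the ACT + NKTR-214 tumors and still above every ACT + IL-2 tumor. The ratio of the means was 6.42, with 7.91 ± 2.41 FPKM under ACT + NKTR-214 and 1.23 ± 0.360 FPKM under ACT + IL-2 (SD, n = 3 each). On the log2 scale *Egr2* was 1.97 higher (SE 0.20, limma adjusted p = 2.79e-06).

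*Egr3* was the lowest of the 10 genes in ACT + IL-2, at 0.556, 0.262 and 0.323 FPKM, and measured 4.82, 4.34 and 2.02 FPKM under ACT + NKTR-214. The groups were far apart, although the ACT + NKTR-214 tumors themselves spread from 2.02 to 4.82 FPKM. The ratio of the means was 9.81, above that of the other 9 genes. On the log2 scale *Egr3* was 1.73 higher (SE 0.20, limma adjusted p = 9.03e-06), and 2.95 higher with a pseudocount of 0.1 in place of 1.

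Within a tumor, the gap between *Egr2* and *Egr1* changed by 0.22 on the log2(FPKM + 1) scale (exact permutation p = 0.4) and that between *Egr3* and *Egr1* by -0.02 (exact permutation p = 1.0). Both overlapped between the groups. These differences rest on the pseudocount, since with 0.1 the *Egr2* gap changed by 0.66 and the *Egr3* gap by 1.04. They also moved with single tumors. With 1 tumor left out the *Egr2* gap changed by 0.07 to 0.37 and the *Egr3* gap by -0.13 to 0.12.

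*Nfatc1*, which like *Egr1* lies on chromosome 18, encodes NFATc1 (NFAT2), an NFAT protein whose short isoform is itself induced by NFAT. It measured 2.52, 1.39 and 1.27 FPKM under ACT + IL-2 and 11.3, 11.3 and 6.81 FPKM under ACT + NKTR-214. The groups did not overlap, and replicate 1 was the highest ACT + IL-2 tumor while replicate 3 was the lowest ACT + NKTR-214 tumor. The means were 1.73 ± 0.688 and 9.81 ± 2.59 FPKM (SD, n = 3 each), a ratio of 5.68. The log2 fold change of 1.98 (SE 0.21, limma adjusted p = 3.71e-06) was above that of the other 9 genes on this scale. The gene-level values do not tell its isoforms apart.

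*Irf4* (chr13:30749226-30766976) encodes a factor whose amount follows the strength of receptor signals and which B cells, plasma cells, macrophages and dendritic cells also use. It measured 0.943, 0.533 and 0.452 FPKM under ACT + IL-2 and 5.24, 5.58 and 2.93 FPKM under ACT + NKTR-214. The groups did not overlap, and the order of the tumors was the same as for *Egr2*, with replicates 1 and 2 of ACT + NKTR-214 highest. The means were 0.643 ± 0.263 and 4.58 ± 1.44 FPKM (SD, n = 3 each), a ratio of 7.13. On the log2 scale *Irf4* was 1.74 higher (SE 0.19, limma adjusted p = 4.9e-06).

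*Batf* (chr12:85686669-85709087), the AP-1 family partner of IRF4, was higher in ACT + NKTR-214 by a smaller amount. It measured 7.18, 3.62 and 4.71 FPKM under ACT + IL-2 and 11.1, 12.4 and 6.47 FPKM under ACT + NKTR-214. The groups overlapped, since ACT + NKTR-214 replicate 3 was below ACT + IL-2 replicate 1. The means were 5.17 ± 1.83 and 9.99 ± 3.11 FPKM (SD, n = 3 each), a ratio of 1.93, and the log2 fold change was 0.83 (SE 0.23, limma adjusted p = 0.0124). Without ACT + IL-2 replicate 2 the log2 fold change was 0.64 and the call was lost (limma adjusted p = 0.128), as it was with no minimum level (limma adjusted p = 0.0769).

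*Tox* (chr4:6686353-6991557) encodes an HMG box protein that sustains the exhausted state of T cells. It was low in most tumors, at 0.985, 0.306 and 0.402 FPKM under ACT + IL-2 and 2.81, 2.16 and 0.531 FPKM under ACT + NKTR-214. Replicates 1 and 2 of ACT + NKTR-214 were the highest, and replicate 3 was below ACT + IL-2 replicate 1, so the groups overlapped. The ratio of the means was 3.25 and the log2 fold change 0.78 (SE 0.25, limma adjusted p = 0.0279). This call was lost without ACT + IL-2 replicate 2 (limma adjusted p = 0.231), with 75th percentile scaling (adjusted p = 0.0936), with quantile normalization (adjusted p = 0.158), with no minimum level (adjusted p = 0.142) and without the intensity trend (adjusted p = 0.0693). On the opposite strand Gm11802 shares 3.42% of the exon bases of *Tox*, and whether the counting used strand is not given in the sources used here. No exon base of the other 9 genes is shared with another annotated gene.

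Leaving out 1 tumor at a time left *Nr4a3*, *Egr1*, *Egr2*, *Egr3*, *Nfatc1* and *Irf4* on the same side of the threshold in all 6 fits. Without ACT + IL-2 replicate 2, where *Batf* and *Tox* were lost, 5 of the 10 genes were higher and 1 was lower, beside 14.1% of all genes tested in each direction. The log2 fold change lay between 1.82 and 2.21 for *Egr2*, between 1.55 and 2.02 for *Egr3*, and between 1.87 and 2.20 for *Nfatc1*. For *Irf4* it lay between 1.60 and 1.98 and for *Egr1* between 1.55 and 1.95. The range was wider relative to the change for *Tox*, from 0.52 to 1.17, and for *Batf*, from 0.64 to 1.09.

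**Figure D2:**
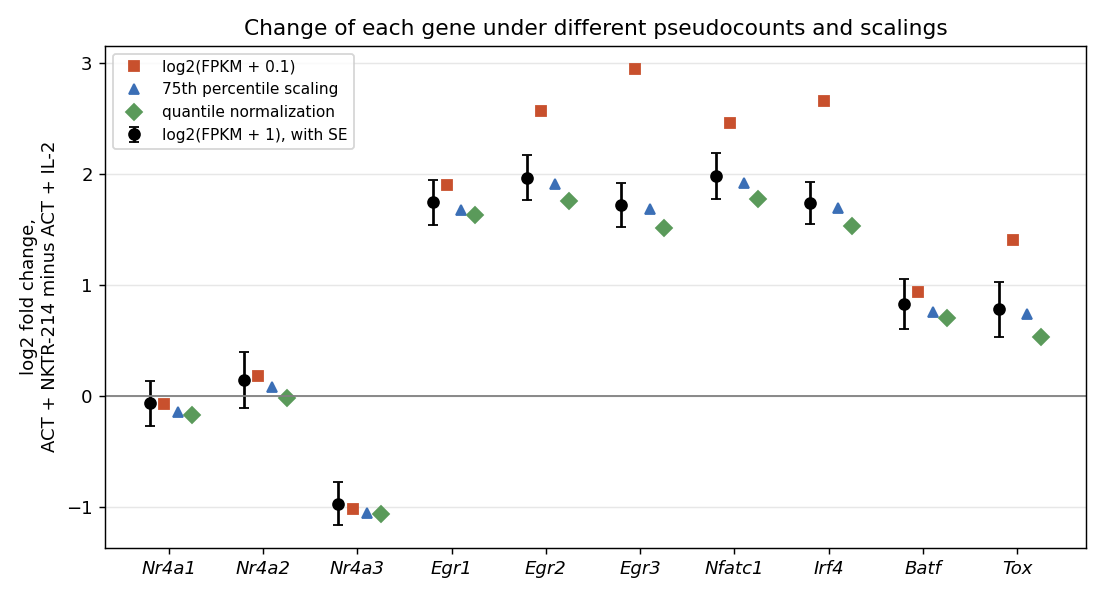
Log2 fold change of each gene (ACT + NKTR-214 minus ACT + IL-2) with the reported pseudocount of 1 and its standard error (black), with a pseudocount of 0.1, after 75th percentile scaling of FPKM, and after quantile normalization. The smaller pseudocount moves *Egr3* from 1.73 to 2.95 and *Irf4* from 1.74 to 2.66, and *Nr4a3* stays near -1 throughout.

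The transcripts of several cell types differed between the groups in the same tumors. The 5 pan T cell genes *Cd3d*, *Cd3e*, *Cd3g*, *Cd5* and *Cd6* were all higher in ACT + NKTR-214, and their summed FPKM was 16.3, 7.17 and 6.46 in ACT + IL-2 against 160, 180 and 80.4 in ACT + NKTR-214, a ratio of 14.1. Both CD8 genes were higher (ratio of sums 14.5). All 7 macrophage and monocyte genes were higher, with sums of 944, 424 and 327 FPKM against 1955, 2712 and 1511 FPKM. Of 7 melanocyte genes 5 were lower, with sums of 6377, 5413 and 6933 FPKM against 3763, 2664 and 3622 FPKM. All 3 neutrophil genes tested were higher, 5 of 6 dendritic cell genes, all 5 fibroblast and pericyte genes, 2 of 4 NK cell genes and 1 of 4 endothelial genes. Of the 5 B cell and plasma cell genes *Ms4a1*, *Cd79a*, *Cd79b*, *Jchain* and *Mzb1*, 3 were tested, and 0 were called by limma or had an unadjusted p under 0.05. Their sum was 0.984 to 2.29 FPKM against 1.09 to 1.98 FPKM, and *Ms4a1* was listed at 0 in 4 tumors. The summed levels ranged as follows. They were 3.71 to 8.99 FPKM against 20.9 to 47.7 FPKM for neutrophil genes (*Ly6g* at 0 in 5 tumors), 7.81 to 12.7 against 20.5 to 35.6 for dendritic cell genes, and 144 to 408 against 380 to 735 for fibroblast and pericyte genes. NK cell genes summed to 0.974 to 2.64 FPKM against 6.32 to 9.56, and endothelial genes to 22.1 to 47.8 against 33.9 to 69.4. The NK cell genes that rose were *Klrb1c* (mean 0.418 to 3.69 FPKM) and *Eomes* (0.537 to 3.51 FPKM). Of these, *Eomes* is not restricted to NK cells and is also expressed by CD8 T cells. *Ncr1* (0.582 and 0.672 FPKM) and *Klra8* (0.122 and 0.127 FPKM) overlapped between the groups and did not pass. The part of these cell types in the results on the 10 genes was not tested.

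Set beside the T cell transcripts of its own tumor, each of the 10 genes was lower in ACT + NKTR-214, and the groups did not overlap for any of them. The same held for 96.2% of all genes tested, since the T cell sum itself rose 14.1-fold, and the count therefore does not set the 10 genes apart. The size of the drop varied widely, in the order of the FPKM ratios, as every gene was divided by the same sum. Per 100 FPKM of the 5 T cell genes, *Egr3* went from 4.02 ± 0.853 in ACT + IL-2 to 2.65 ± 0.318 in ACT + NKTR-214 (SD, n = 3 each), the smallest of the 10 drops. Its lowest ACT + IL-2 tumor, at 3.41, was just above its highest ACT + NKTR-214 tumor, at 3.01. *Irf4* went from 6.74 ± 0.848 to 3.34 ± 0.277, *Egr2* from 13.4 ± 2.86 to 5.78 ± 0.560 and *Nfatc1* from 18.2 ± 2.35 to 7.27 ± 1.11. These 4 genes were thus 1.52 to 2.50 times as high per T cell transcript in ACT + IL-2, against 14.1-fold less T cell transcript there. The same ratio was 3.99 for *Egr1*, 4.57 for *Tox* and 7.66 for *Batf*. It was 13.2 for *Nr4a2* and 28.4 for *Nr4a3*, with *Nr4a1* between them. For each gene the exact two-sided permutation p was 0.1, the smallest possible. With *Cd3e* alone in place of the 5 genes all 10 were again lower without overlap. *Cd3e* is 1 of those 5 genes and itself rose 14.7-fold, so this is not a separate check and does not set the 10 genes apart.

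Relative to 2 other sums, chosen after the values had been seen, the order of the genes by group ratio was the same and the level shifted. Per 1000 FPKM of the melanocyte genes, *Nr4a3* measured 4.92, 4.66 and 4.93 in ACT + IL-2 and 5.12, 3.96 and 4.42 in ACT + NKTR-214. These overlapped (exact permutation p = 0.4), so the difference of *Nr4a3* seen in FPKM was not seen on this scale, where its ratio was 0.930. The melanocyte genes themselves fell unequally, with ratios from 0.270 (*Mitf*) to 0.663 (*Sox10*). The result for *Nr4a3* thus depends on the genes summed, and no single melanocyte gene was used in place of the sum. *Nr4a1* was higher relative to the same sum, at 6.28 ± 0.890 against 11.4 ± 2.44 (SD, n = 3 each), without overlap. Over all genes tested 87.3% were higher without overlap per melanocyte FPKM and 1.07% were lower. Per 100 FPKM of the macrophage genes, *Egr3* was 2.47 times as high in ACT + NKTR-214, *Irf4* 1.84 times, *Egr2* 1.59 times and *Nfatc1* 1.47 times, all without overlap. Over all genes tested 3.18% were higher without overlap on this scale and 84.1% were lower, since the macrophage sum itself rose 3.64-fold. *Egr1* and *Tox* overlapped there, with ratios of 0.907 and 0.864. *Nr4a3*, *Nr4a1*, *Nr4a2* and *Batf* were lower without overlap, with ratios of 0.124, 0.241, 0.279 and 0.476. No such ratio says in which cells a transcript was made.

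**Figure D3:**
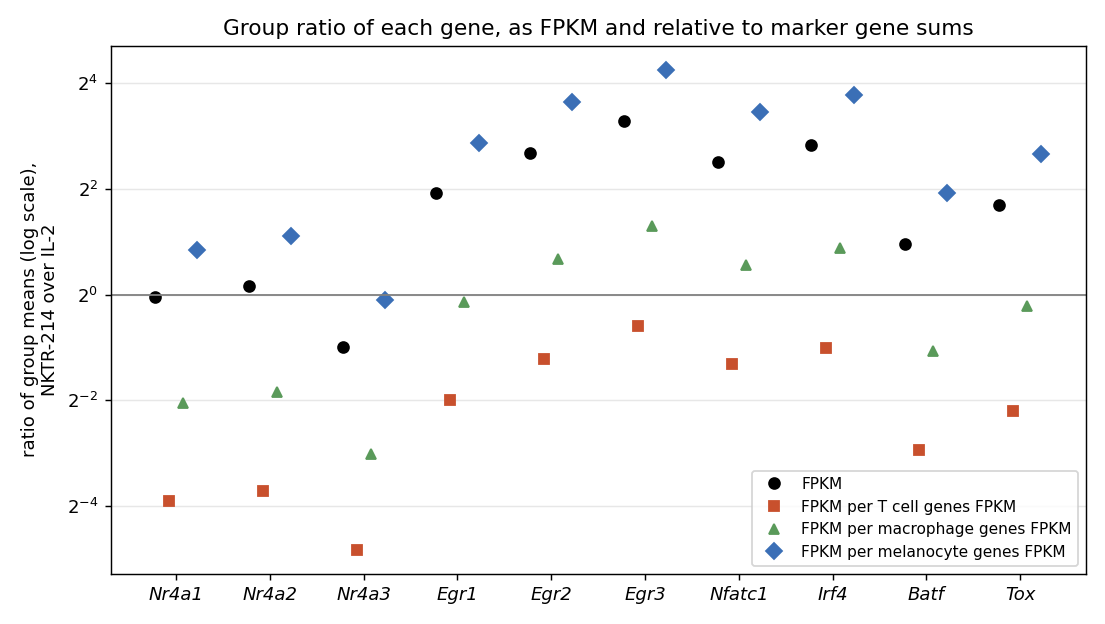
Ratio of the group means (ACT + NKTR-214 over ACT + IL-2, log axis) of each gene as FPKM and as FPKM relative to the summed T cell, macrophage and melanocyte genes of the same tumor. *Nr4a3* is at 0.505 as FPKM and at 0.930 relative to melanocyte genes, *Egr3* is at 9.81 as FPKM and at 0.658 relative to T cell genes, and all 10 genes lie below 1 relative to T cell genes.

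Among the relatives of the 10 genes (11 genes, 8 tested), 3 were higher and 1 was lower, beside 20.7% and 8.28% of all genes tested, with a median log2 fold change of 0.30. *Batf3*, a factor that cross-presenting dendritic cells require and T cells induce, rose from 2.47 ± 0.995 to 7.74 ± 0.786 FPKM (log2 fold change 1.37, limma adjusted p = 5.26e-05). *Irf8*, a myeloid and dendritic cell factor, rose from 34.0 ± 7.64 to 48.9 ± 4.97 FPKM (0.53, limma adjusted p = 0.0265). *Batf2*, an interferon-induced family member, fell from 34.7 ± 5.01 to 19.8 ± 4.72 FPKM (-0.79, limma adjusted p = 0.00254). *Nfatc2* was higher at 0.39 (limma adjusted p = 0.0462), while *Nfatc3*, *Nfatc4*, *Nfat5* and *Tox4* did not pass, with log2 fold changes of 0.10, 0.46, 0.21 and 0.13. Without ACT + IL-2 replicate 3, or without ACT + NKTR-214 replicate 2, 1 relative was higher. *Egr4*, *Tox2* and *Tox3* were below the minimum level for a test.

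Of 14 AP-1 and other immediate early genes, 11 were higher and 0 were lower by limma, beside 20.7% and 8.28% of all genes tested, with a median log2 fold change of 1.05. *Btg2*, an antiproliferative early gene, rose from 2.25 ± 0.868 to 11.6 ± 4.39 FPKM (1.92, limma adjusted p = 2.49e-05). *Dusp1*, a MAP kinase phosphatase, rose from 9.22 ± 3.16 to 32.6 ± 8.27 FPKM (1.73, limma adjusted p = 2.39e-05). *Fosl2*, *Ier3* and *Myc* did not pass, with log2 fold changes of 0.32, 0.22 and 0.29. The other 9 genes that were higher, among them *Fos*, *Jun*, *Junb* and *Jund*, had log2 fold changes of 0.72 to 1.63.

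Of the 13 genes of the calcium and calcineurin pathway, 12 were tested, 3 were higher and 0 were lower by limma, with a median log2 fold change of 0.11. This count is near the background of 20.7% higher over all genes tested. *Ppp3cc*, a catalytic subunit of calcineurin, rose from 6.17 ± 1.21 to 17.2 ± 4.44 FPKM (1.32, limma adjusted p = 8.43e-05). *Orai1*, the calcium channel of the plasma membrane that STIM proteins open, rose from 7.02 ± 1.30 to 13.3 ± 2.27 FPKM (0.84, limma adjusted p = 0.00134), and *Orai2* was higher at 0.68. The other catalytic subunits *Ppp3ca* and *Ppp3cb*, at 0.35 and 0.08, and *Rcan1*, a calcineurin inhibitor that NFAT induces, at 0.35, did not pass.

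Of 10 genes known as targets of EGR or NFAT factors or as parts of the anergy program, 7 were higher and 0 were lower by limma, with a median log2 fold change of 1.20, where all genes tested gave 20.7% higher and 8.28% lower. *Fasl*, the ligand of the death receptor Fas, rose from 0.344 ± 0.0263 to 7.94 ± 2.90 FPKM (2.67, limma adjusted p = 1.89e-07). *Lag3*, an inhibitory receptor, rose from 2.06 ± 0.678 to 15.5 ± 5.60 FPKM (2.39, limma adjusted p = 2.16e-06). *Dgka*, *Cblb*, *Tnfrsf9*, *Rnf128* and *Dgkz* were higher at 2.20, 1.72, 1.45, 0.96 and 0.70. *Nab1* and *Nab2*, corepressors that bind EGR proteins, did not pass, at -0.14 and 0.16, nor did *Itch* at 0.02.

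Of 10 other regulators of exhausted and memory T cells, 5 were higher and 0 were lower by limma, with a median log2 fold change of 0.58, again beside 20.7% and 8.28% of all genes tested. *Myb* rose from 0.399 ± 0.0555 to 4.03 ± 1.00 FPKM (1.82, limma adjusted p = 4.56e-07) and *Prdm1*, which encodes the repressor BLIMP-1, from 1.14 ± 0.322 to 4.09 ± 0.915 FPKM (1.24, limma adjusted p = 4.02e-05). *Nfil3*, *Bach2* and *Id2* were higher at 1.24, 0.88 and 0.75. *Tcf7*, a factor of stem-like T cells, was at -0.05 and did not pass, like *Id3*, *Maf*, *Ikzf2* and *Bhlhe40*. *Tcf7* measured 13.9, 11.3 and 11.1 FPKM in ACT + IL-2, where the T cell genes summed to 16.3, 7.17 and 6.46 FPKM. In ACT + NKTR-214 it measured 14.1, 13.4 and 8.20 FPKM. Which cells made it was not tested. In the 4 lists with 0 lower genes, 0 genes were lower at an unadjusted p under 0.05 as well. Means are given with the SD of 3 tumors per group throughout these lists.

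**Figure D4:**
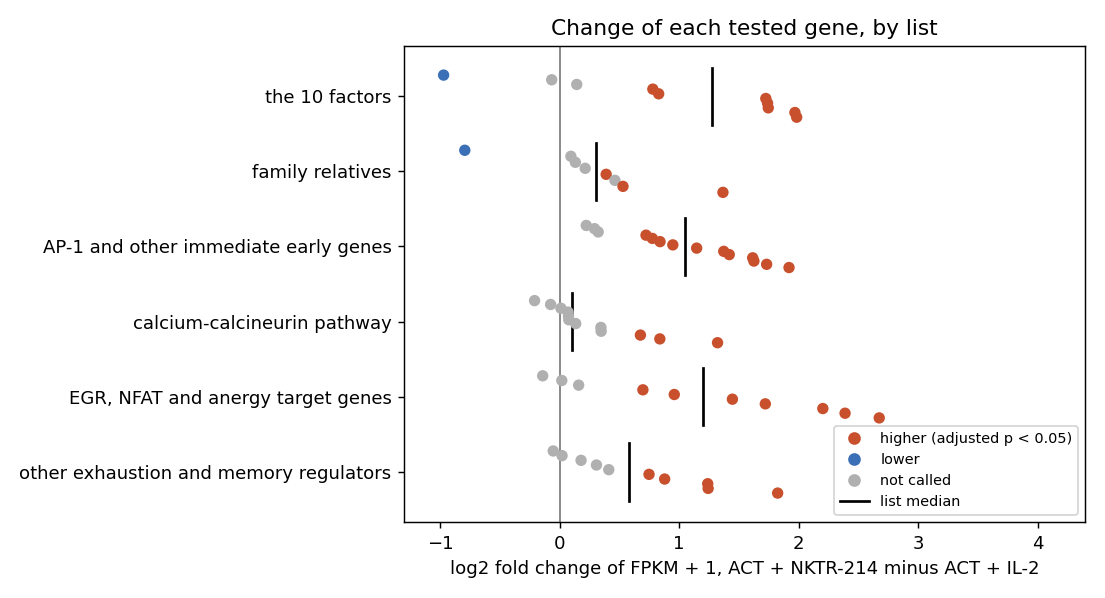
Log2 fold change of every tested gene of the 6 lists (ACT + NKTR-214 minus ACT + IL-2), 1 point a gene, with the list median as a line. Colors give the limma call. The medians are 1.28 for the 10 factors, 1.20 for EGR, NFAT and anergy targets, 1.05 for AP-1 and other early genes, 0.58 for other regulators, 0.30 for relatives and 0.11 for the calcium and calcineurin pathway.

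The genes with the most similar profile over the 6 tumors were found by the root mean square difference in centred log2(FPKM + 1) over 11548 candidates. *Irf4* and *Egr3* shared their nearest gene, *Sorl1* (differences of 0.0298 and 0.0743), and the next were *Gimap5* for *Irf4* and *Sept6* for *Egr3*. *Egr2* was nearest to *Pkp3* (0.0434) and *Traf3ip3* (0.0679), and *Nfatc1* to *Atp2b4* (0.0588) and *Arhgef6* (0.0781). *Nr4a3* followed *Pygo1* and *Ncald* (0.0584 each), both lower in ACT + NKTR-214. *Batf* was nearest to *Gm13889* (0.0843) and *Hlx* (0.103). The likeness was weaker for *Tox* (*Acsl1*, 0.178, and *Rgs2*, 0.181), for *Egr1* (the early gene *Dusp1*, 0.148, and *Tmem154*, 0.149), for *Nr4a2* (*Smim11*, 0.145, and *Clu*, 0.152) and for *Nr4a1* (*Chpt1*, 0.127, and *Mcrip2*, 0.128).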

How the data were processed

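RNA of 6 whole tumors was sequenced by the authors as single-end reads, mapped to GRCm38 with HISAT2 2.0.4 and counted per gene with HTSeq, per the submitters' processing notes and the methods. The authors deposited FPKM values on a linear scale, 1 column per tumor, with no scaling between libraries stated. The annotation and strand setting are not given in the sources used here.

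The test was that of limma 3.58.1 (R 4.3.3) on log2(FPKM + 1), by lmFit and by eBayes with its trend option, for the 14172 genes whose mean reached 0.1 FPKM. P-values were adjusted over all of them by Benjamini and Hochberg, and 0.05 was the threshold. The sign is ACT + NKTR-214 minus ACT + IL-2. For ratios within a tumor an exact permutation test (two-sided) was used. Depth was estimated from the steps between low FPKM values, taking the lengths of short genes in a RefSeq table as their exon lengths. Python 3.11.15, pandas 2.3.3 and numpy 2.4.6 made the tables.

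The 10 genes and the lists were chosen with earlier results of these data known. Named in the text are all 10 genes, the 2 genes of each list with the largest positive and the 2 with the largest negative change among called genes of mean FPKM 1 or more, and the 2 nearest profiles of each of the 10. Other list genes were named after their values were seen. The values of 1 B cell marker gene are not reported here. The alternatives were other pseudocounts, minimum levels, scalings and variance models, a replicate block, and each tumor left out in turn.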

Additional observations from a re-analysis of the deposited data

How the results depend on the processing

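Among the 10 genes, 6 of the 8 calls kept their direction and their side of the threshold under all settings except the fit without moderation of the variance. That fit gave 0 higher and 0 lower of the 10, 101 higher and 27 lower of all genes, and 0 calls in each of the other 5 lists (at an unadjusted p under 0.05, 5 of the 10 were higher and 1 lower, 2 to 10 genes of each other list were higher and 1 relative was lower, beside 21.2% and 11.4% of all genes). *Batf* and *Tox* were lost as given in the report.

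The balance over all genes moved with the scaling. FPKM as deposited gave 2940 higher and 1173 lower genes (71.5% of calls higher), 75th percentile scaling 3370 and 3501 (49.0%), and quantile normalization 2691 and 4525 (37.3%), with the median of all genes moved by -0.14. Under both other scalings 1 calcium and calcineurin gene and 1 EGR, NFAT or anergy target were lower, where FPKM as deposited gave 0. With 1 tumor left out, 635 (without ACT + IL-2 replicate 3) to 2003 (without ACT + IL-2 replicate 2) genes were lower, 682 without ACT + NKTR-214 replicate 2, and 1 to 3 relatives were higher.

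Deviations of same-numbered tumors correlated at -0.206, -0.0667 and 0.396, and 2 of 6 libraries correlated best with their own number, so the numbers were not taken to pair mice. With a replicate block 3090 genes were higher and 1227 lower, and of the 10 genes 7 were higher and 1 was lower, with no call changed. Estimated from 15 to 30 short genes per library, depth was about 20860000 to 24620000 mapped fragments, and 3 tumors per group set the precision.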
